A study of Homo sapiens with 6 samples.

Results

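The genes described here encode subunits of the nuclear RNA polymerases I, II and III (Pol I, Pol II and Pol III), together with initiation factors of Pol I and Pol III and the Pol III repressor MAF1. Members were the protein-coding genes whose symbol starts with POLR1, POLR2 or POLR3 followed by a letter, and 12 further genes given by name, which encode 3 Pol I subunits with older symbols (TWISTNB, ZNRD1 and CD3EAP), 6 Pol I factors (UBTF, RRN3 and TAF1A to TAF1D) and 3 Pol III factors (BRF1, BDP1 and MAF1). This gave 43 genes of the 25838 in the table, with 42 symbols because POLR2J3 stands for 2 genes, and all 43 passed the filter on low counts. A further 4 genes with matching names are not protein-coding and were left out. CRCP, whose symbol does not match, also encodes a Pol III subunit and is counted among the other Pol III genes below.

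RNA sequencing was carried out in 3 libraries of Sup-B15, a prednisolone-sensitive B-cell precursor acute lymphoblastic leukaemia line described as the parental line, and in 3 libraries of Sup-PR, the prednisolone-resistant sub-clone derived from it. Both lines were sequenced without treatment, after growth in IMDM with fetal bovine serum and antibiotics, so the values are baseline levels. The comparison is between 1 parental line and 1 resistant sub-clone, and whatever else sets these lines apart cannot be told apart from resistance. The labels call the libraries of a line biological replicates without saying whether the cultures were grown separately, and p-values therefore stand against a spread between libraries that may in part be technical.

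Pol I transcribes the repeated genes for the large ribosomal RNA precursor in the nucleolus, Pol II transcribes messenger RNA genes, and Pol III transcribes transfer RNA, 5S ribosomal RNA and other short RNAs. Each enzyme has its own large catalytic subunits, several small subunits are shared between them, and Pol I and Pol III make most of the RNA of the protein synthesis machinery. Their output is known to follow growth signals, with MYC and mTORC1 among the regulators, and MAF1 acts as a repressor of Pol III.

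Libraries held 16966569 to 26603422 counts, and the members had between 9 and 14484 counts in a library. All 10 B-cell precursor markers examined had counts in every library, and their summed level was 7738 to 8660 CPM (counts scaled to a common library size, allowing for composition) in Sup-B15 and 6227 to 6773 CPM in Sup-PR, with 6 of the 10 lower and 0 higher. Of 22 markers of T cells, myeloid, NK, erythroid cells and fibroblasts, 9 were in the table, and the 5 of T cells were not analysed here. The summed CPM in Sup-B15 and Sup-PR were 6.59 to 10.6 and 4.69 to 7.28 for 3 myeloid genes, 52.4 to 60.6 and 22.6 to 23.7 for 2 NK genes, 0.263 to 0.344 and 0 to 0.251 for 1 erythroid gene, and 11.0 to 11.9 and 9.58 to 12.3 for 3 fibroblast genes; the part of these shifts in the results below was not tested. Of the 2 NK genes, 1 had counts in every library. In bulk RNA of this kind, fewer cells of a type and less RNA per cell cannot be told apart.

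Of the 43 members, 29 were higher in Sup-PR, 5 were lower and 9 did not pass the test (edgeR's quasi-likelihood test, Benjamini-Hochberg adjusted p under 0.05 over all 14869 genes tested). The share of higher genes was 67.4% among the members, against 28.0% of all genes tested and 32.3% of the protein-coding genes tested. For lower genes, the background was 27.4% of all genes and 27.9% of the protein-coding ones. The median log2 fold change of the members was 0.28, whereas it was -0.01 over all genes tested and 0.02 over protein-coding genes. Most of these differences were small, as 6 members were higher and 2 were lower by more than 1.5-fold, beside 7.53% and 15.4% of all genes tested. In 30 members every Sup-PR library lay above every Sup-B15 library and in 4 every one lay below, where 30.8% and 30.3% of all genes tested did so. Without Sup-B15 replicate 2, the lower members numbered 2, with 1 of them lower by more than 1.5-fold.

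The members differed by polymerase. All 6 subunits found only in Pol I were higher in Sup-PR (median log2 fold change 0.45, range 0.28 to 0.73). So were 9 of the 10 members found only in Pol III (median 0.41) and both that are shared by Pol I and Pol III (median 0.48). Of the 5 present in all 3 enzymes, 4 were higher (median 0.28). Of the 11 genes listed under Pol II only, 4 were higher, 3 were lower and 4 did not pass the test, with a median of -0.01. The share of higher genes there was 36.4%, beside 32.3% of the protein-coding genes tested. The 3 lower genes of the 11 stand beside 27.9% of the protein-coding genes tested. Both counts are thus close to those of protein-coding genes in general. Without POLR2J2 and POLR2J3, related copies of POLR2J among which reads cannot be divided with certainty, 4 of the remaining 8 were higher and 1 was lower, with a median of 0.17. Leaving out Sup-B15 replicate 2 brought the lower Pol II genes from 3 to 1. These are counts within role groups, and the difference between the groups was not tested.

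**Figure D1:**
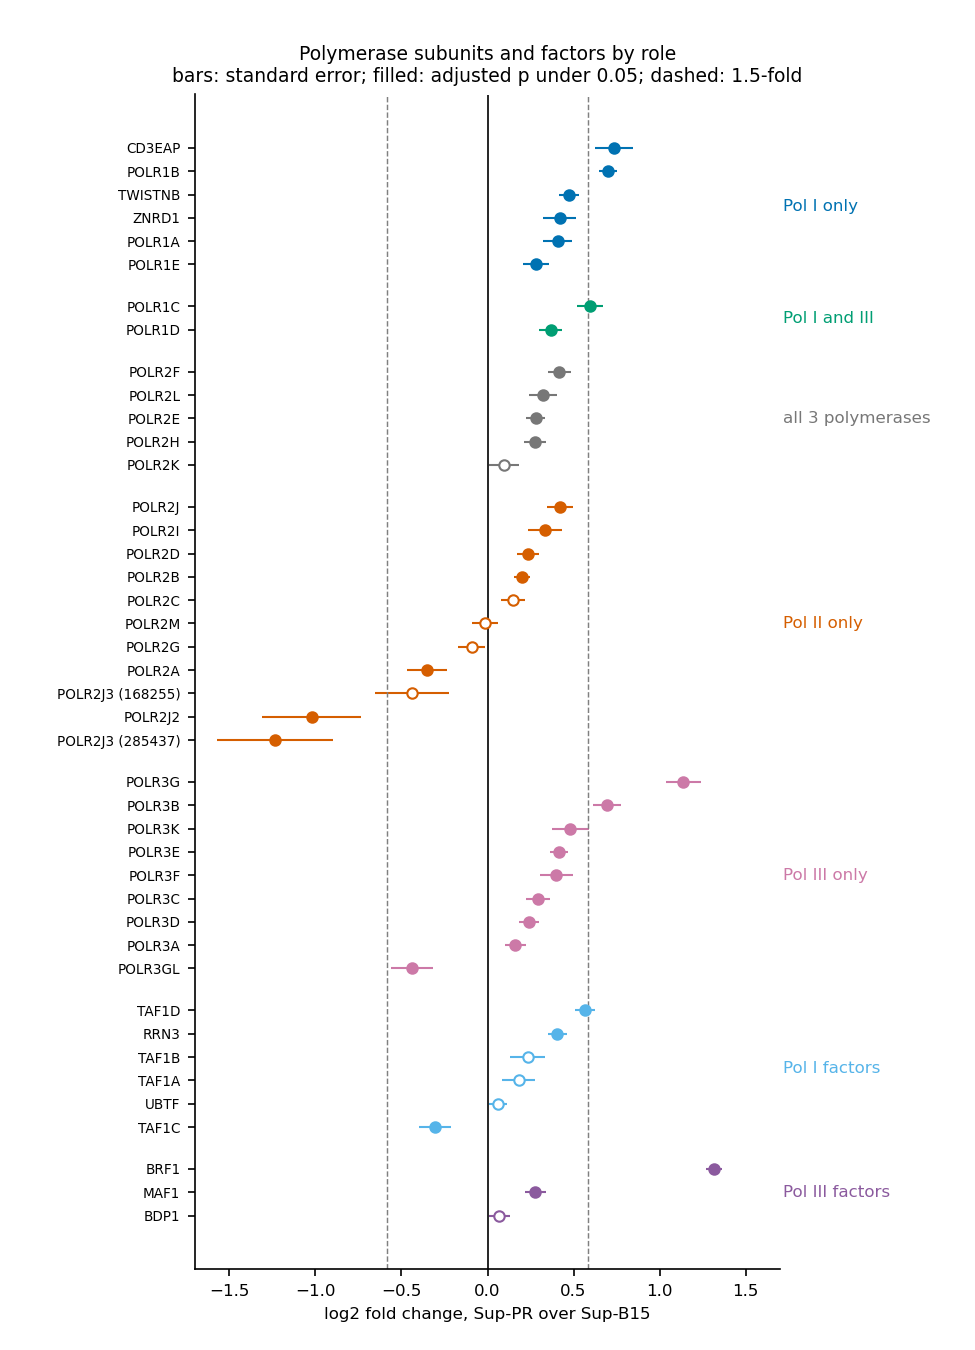
Log2 fold change (Sup-PR over Sup-B15, horizontal axis) of 42 member genes, arranged by role, with the standard error as bars and filled points for an adjusted p under 0.05; dashed lines mark 1.5-fold. All 6 subunits of Pol I lie to the right of 0, the Pol II subunits lie on both sides, and BRF1 (1.32) and POLR3G (1.14) lie furthest to the right.

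The same arrangement was seen library by library. Relative to the mean of the Sup-B15 libraries, the median of the Pol I subunits on the log2 scale was between -0.04 and 0.07 in the Sup-B15 libraries and between 0.44 and 0.56 in the Sup-PR libraries. For the Pol III subunits it was -0.02 to 0.01 in Sup-B15 and 0.36 to 0.43 in Sup-PR. For Pol II, the 2 ranges overlapped, at -0.07 to 0.12 and -0.12 to 0.10. These Pol II medians take in POLR2J2 and POLR2J3, without which the median log2 fold change of the group was 0.17.

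Among the subunits found only in Pol I, CD3EAP and POLR1B rose most. CD3EAP, which encodes a subunit of the Pol I heterodimer that associates with POLR1E, stood at 7.04, 6.38 and 6.52 CPM in the Sup-B15 libraries and at 10.5, 10.9 and 11.7 CPM in the Sup-PR libraries (log2 fold change 0.73, SE 0.11, adjusted p = 8.8e-05). POLR1B, the second largest subunit, which forms the active centre together with POLR1A, was measured at 73.2, 70.1 and 69.9 CPM in Sup-B15 and at 114, 116 and 117 CPM in Sup-PR (log2 fold change 0.70, SE 0.05, adjusted p = 9.4e-08). The libraries of a line lay close together for POLR1B, and the lines did not overlap for either gene. POLR1A, the largest subunit, had 113, 100 and 88.9 CPM in Sup-B15 and 144, 137 and 120 CPM in Sup-PR (log2 fold change 0.41, SE 0.08, adjusted p = 0.0011). Its spread within each line was wide, yet the lowest Sup-PR library lay above the highest Sup-B15 library. TWISTNB, a subunit of the Pol I stalk, rose by 0.47, ZNRD1, a small zinc-binding subunit, by 0.42, and POLR1E, the partner of CD3EAP, by 0.28 on the log2 scale.

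Some of these loci overlap other genes, and the use of strand in the counting is not given in the sources used here. Of the exon bases of CD3EAP (chr19:45406209-45410766, plus strand, GRCh38), 43.5% lie opposite exons of the repair gene ERCC1, which fell by 0.27 on the log2 scale. ZNRD1 has 24.5% of its exon bases opposite ZNRD1ASP, which fell by 0.68. Whether reads from these overlapping genes have a part in the values was not tested. POLR1B (chr2:112541915-112577150, plus strand) and POLR1A had no stretch of 100 exon bases in common with another gene.

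POLR1C and POLR1D encode the subunit pair on which both Pol I and Pol III are assembled, and both genes rose. POLR1C was at 17.7, 19.0 and 17.8 CPM in Sup-B15 and 27.3, 26.9 and 28.5 CPM in Sup-PR (log2 fold change 0.60, SE 0.08, adjusted p = 1.7e-05). No Sup-PR library came near the Sup-B15 range. POLR1D rose by 0.37 on the log2 scale (adjusted p = 0.00037), from 71.9 to 84.9 CPM in Sup-B15 to between 94.3 and 102 CPM in Sup-PR.

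Of the small subunits shared by all 3 enzymes, POLR2F rose most, from 31.2, 33.0 and 34.8 CPM to 42.5, 44.8 and 45.0 CPM (log2 fold change 0.42, SE 0.07, adjusted p = 0.00013). POLR2L rose by 0.32 and POLR2E and POLR2H each by 0.28 on the log2 scale. The fifth, POLR2K, had 76.7 to 92.7 CPM in Sup-B15 and 77.2 to 98.6 CPM in Sup-PR, so that the lines overlapped (log2 fold change 0.10, adjusted p = 0.37). POLR2L has 22.5% of its exon bases opposite CD151, a gene that itself rose by 0.66.

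The Pol II subunits did not move together. POLR2A encodes the largest subunit, which carries the heptad-repeat C-terminal domain (chr17:7484366-7514616, plus strand, GRCh38). It stood at 552, 525 and 414 CPM in Sup-B15 and at 445, 368 and 355 CPM in Sup-PR, a lower level on average (log2 fold change -0.35, SE 0.12, adjusted p = 0.028). The lines overlapped, since the lowest Sup-B15 library lay below the highest Sup-PR library. The call was lost without Sup-B15 replicate 1, Sup-B15 replicate 2 or Sup-PR replicate 2 (adjusted p = 0.069, 0.072 and 0.066 from edgeR). It was made in 12 of 19 other settings, and was also lost in the fits on log2 FPKM. POLR2B, the second largest subunit, moved the other way, from 184, 181 and 183 CPM to 207, 211 and 212 CPM (log2 fold change 0.20, SE 0.05, adjusted p = 0.0020). This was a small difference, and the spread within each line was smaller still.

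POLR2D, which joins POLR2G in the Pol II stalk, rose by 0.23, and POLR2I, a subunit near the jaws of the enzyme, by 0.33 on the log2 scale. For POLR2I, 32.9% of the exon bases lie opposite TBCB, which rose by 0.36. A larger part, 61.9%, lies opposite AD001527.2, which was not among the genes tested. Also without a call were POLR2C of the assembly platform (log2 fold change 0.15, adjusted p = 0.093), POLR2G (-0.09, adjusted p = 0.34) and POLR2M (-0.01, adjusted p = 0.88), which encodes a Pol II-associated protein and shares 21.1% of its exon bases with the read-through gene GCOM1.

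POLR2J encodes the remaining partner of POLR2C and has related copies on chromosome 7. POLR2J itself (chr7:102473118-102478907, minus strand) rose from 26.9, 26.6 and 31.0 CPM to 36.7, 38.3 and 37.8 CPM (log2 fold change 0.42, SE 0.08, adjusted p = 0.00033). The copies were lower, at far smaller levels. POLR2J2 (chr7:102665368-102671629, minus strand) had 1.43, 1.67 and 1.58 CPM in Sup-B15 and 0.954, 0.739 and 0.627 CPM in Sup-PR (log2 fold change -1.02, SE 0.29, adjusted p = 0.0079). The POLR2J3 gene ENSG00000285437 (chr7:102562133-102572583) had 1.20, 1.81 and 1.16 CPM against 0.753, 0.652 and 0.403 CPM (log2 fold change -1.24, SE 0.34, adjusted p = 0.0070), and without Sup-B15 replicate 2 its adjusted p was 0.062. The other POLR2J3 gene, ENSG00000168255 (chr7:102537918-102572653), had 3.32, 2.68 and 3.95 CPM against 2.61, 2.65 and 2.02 CPM and did not pass the test (log2 fold change -0.44, adjusted p = 0.097). The lines did not overlap for any of these 4 genes.

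How reads were divided among the copies is uncertain. Of all 100-base stretches in its exons, POLR2J2 shared 88.4% with genes elsewhere, the POLR2J3 genes 57.1% and 28.6%, and POLR2J 25.6%. The 2 POLR2J3 genes also overlap each other on the same strand. Without these 3 copies the members number 40, of which 29 were higher and 3 lower (1 without Sup-B15 replicate 2), with a median log2 fold change of 0.31.

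Pol III held the subunit that rose most. POLR3G and POLR3GL are alternative subunits that occupy the same place in the enzyme, in a trimer with POLR3C and POLR3F that is needed for initiation. POLR3G is the form known from stem cells and proliferating cells, while POLR3GL is widely expressed. POLR3G (chr5:90471748-90514553, plus strand, GRCh38) rose from 8.02, 9.39 and 9.10 CPM in Sup-B15 to 20.7, 18.1 and 19.8 CPM in Sup-PR (log2 fold change 1.14, SE 0.10, adjusted p = 5.6e-07). POLR3GL (chr1:145964702-145978848, plus strand) fell from 12.6, 10.6 and 11.4 CPM to 7.33, 9.43 and 8.60 CPM (log2 fold change -0.44, SE 0.12, adjusted p = 0.0076). In neither gene did the lines overlap, and POLR3GL was the sole Pol III subunit to fall. Of the POLR3GL exon bases, 21.2% are shared on the same strand with AC243547.3, which was not among the genes tested.

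The FPKM, which divide the fragments of a gene by its length and by the size of the library, put the pair on 1 scale. In Sup-B15, the ratio of POLR3G to POLR3GL was 0.285, 0.396 and 0.359, and in Sup-PR it was 1.27, 0.860 and 1.03. By FPKM, POLR3GL was thus the more abundant of the pair in every Sup-B15 library, while the 2 forms had similar levels in Sup-PR. Such a level depends on the length taken for each gene, and all annotated exons of POLR3G and POLR3GL hold 4019 and 1799 bases. In raw counts, POLR3G exceeded POLR3GL in the Sup-PR libraries, at 413, 417 and 443 against 146, 217 and 192. The mean ratio was 3.03-fold higher in Sup-PR (log2 difference 1.60, from -1.54 ± 0.24 to 0.06 ± 0.28, SD, n = 3 each, two-sided exact permutation p = 0.1). With 3 libraries against 3 there are 20 assignments, so 0.1 is the smallest p that this test allows.

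The other Pol III subunits rose by less. POLR3B, the second largest subunit, rose from 21.0, 19.0 and 17.7 CPM to 32.8, 30.9 and 29.8 CPM (log2 fold change 0.69, SE 0.08, adjusted p = 9.1e-06), with a wide gap between the lines. POLR3A, the largest, had 48.1, 49.9 and 46.1 CPM in Sup-B15 and 56.3, 51.8 and 53.2 CPM in Sup-PR (log2 fold change 0.16, SE 0.06, adjusted p = 0.040). Its lines lay only just apart. The call was lost when any single library was left out (adjusted p from 0.052 to 0.123 from edgeR), and it was made in 5 of 19 other settings. Between these lie POLR3K, a small subunit involved in termination (0.48), POLR3E and POLR3D, of the heterodimer that resembles a general initiation factor (0.42 and 0.24), and POLR3F and POLR3C (0.40 and 0.29), all as log2 fold changes past the test and all without overlap between the lines.

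**Figure D2:**
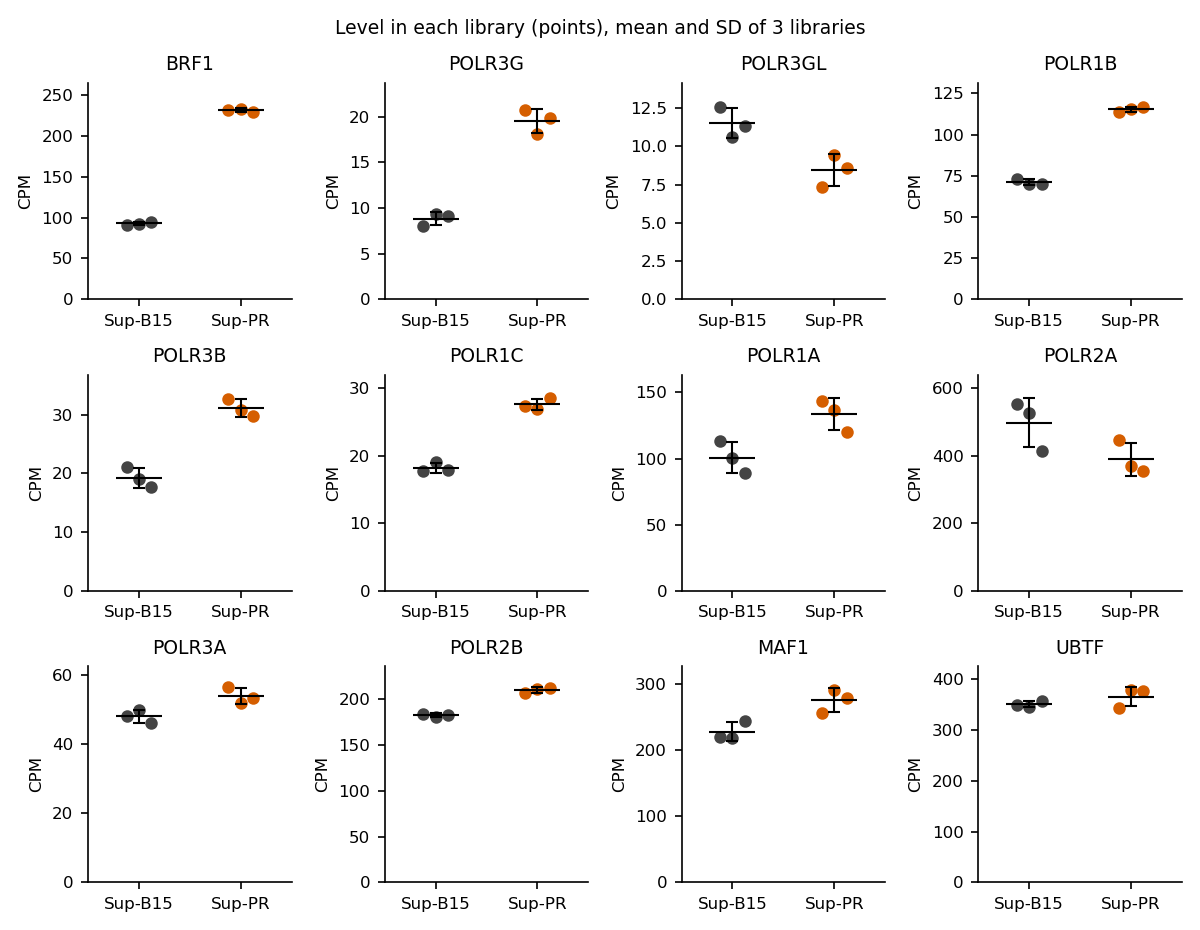
CPM (vertical axes, starting at 0) of 12 members in each of the 3 Sup-B15 and 3 Sup-PR libraries as points, with the mean and SD of each line. BRF1 and POLR3G lie higher in Sup-PR by 1.32 and 1.14 on the log2 scale, POLR3GL lies lower, and the lines overlap for POLR2A and UBTF.

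The catalytic subunits were then compared between enzymes within each library, which does not depend on the scaling between libraries. The FPKM ratio of POLR1A to POLR2A was 0.127, 0.118 and 0.133 in Sup-B15 and 0.200, 0.230 and 0.209 in Sup-PR, a 1.69-fold higher ratio. The ratio of POLR3A to POLR2A was 0.0817, 0.0890 and 0.104 in Sup-B15 and 0.119, 0.132 and 0.141 in Sup-PR (1.43-fold). For both, POLR2A as the denominator was itself lower in Sup-PR. The ratios to POLR2B, which was slightly higher in Sup-PR, gave the same order of the lines. For POLR1B to POLR2B the values were 0.371, 0.362 and 0.356 in Sup-B15 and 0.513, 0.510 and 0.514 in Sup-PR (1.41-fold), and for POLR3B to POLR2B they were 0.139, 0.128 and 0.118 against 0.193, 0.177 and 0.171 (1.41-fold). The lines did not overlap in any of the 5 ratios examined, and each had a two-sided exact permutation p of 0.1, also when adjusted over the 5.

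**Figure D3:**
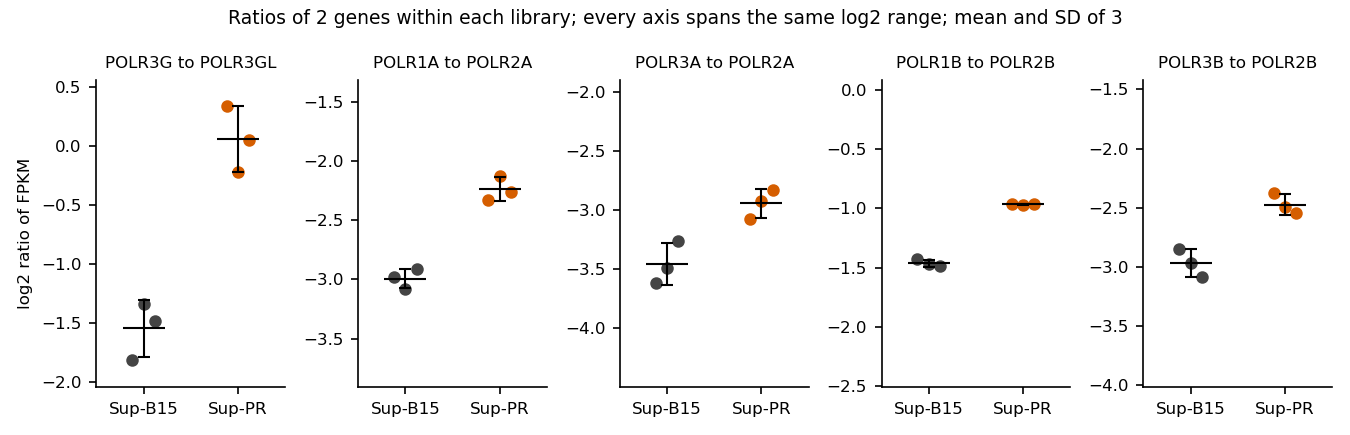
Log2 ratio of the FPKM of 2 genes within each library (points), with the mean and SD of 3 libraries per line; each vertical axis spans the same log2 range. In all 5 panels the Sup-PR libraries lie above the Sup-B15 libraries, by 3.03-fold for POLR3G to POLR3GL and, on the log2 scale, by 0.49 to 0.76 for the ratios to Pol II subunits.

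Per gene length, the catalytic subunits POLR2A and POLR2B had higher levels than those of Pol I and Pol III in both lines. POLR2B stood at a mean of 30.6 FPKM in Sup-B15 and 35.5 FPKM in Sup-PR, against 11.1 and 18.2 FPKM for POLR1B and 3.92 and 6.38 FPKM for POLR3B. Over the 6 libraries, the mean FPKM of the Pol I subunits ran from 2.40 (CD3EAP) to 15.9 (TWISTNB) and that of the Pol III subunits from 3.51 (POLR3G) to 16.0 (POLR3C). The subunits shared by all 3 enzymes ran from 5.44 (POLR2F) to 58.0 (POLR2L), and those of Pol II from 0.137 (a POLR2J3 gene) to 52.6 (POLR2A). The order of genes by FPKM depends on the length taken for each gene. All annotated exons hold 7042 bases for POLR2F and 1142 for POLR2L. POLR2A FPKM was 58.9 on average in Sup-B15 and 46.4 in Sup-PR, whereas POLR1A rose from 7.38 to 9.84 and POLR3A from 5.33 to 6.01.

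**Figure D4:**
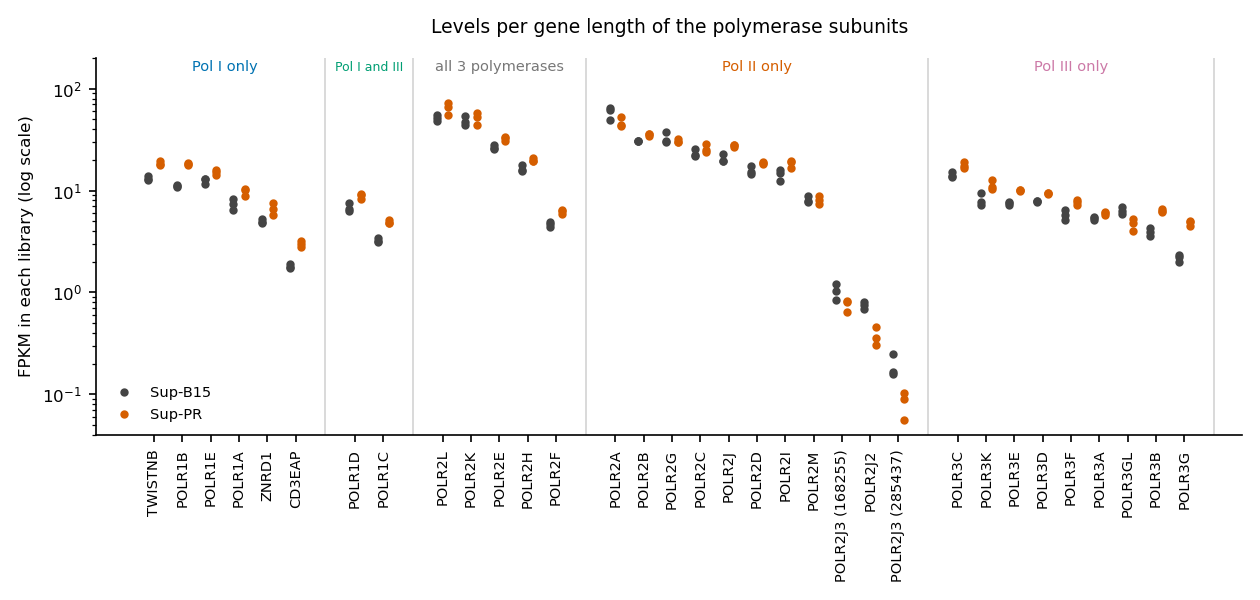
FPKM (log scale) of the subunit genes in each library, grouped by polymerase and ordered by level, with Sup-B15 in grey and Sup-PR in orange. POLR2A and POLR2L are at the top of the range and the POLR2J copies lie below the other genes.

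The initiation factors of Pol I act at the promoters of the ribosomal DNA. Of the 6 Pol I factors, 2 were higher, 1 was lower and 3 did not pass the test. The share of higher genes, 33.3%, was close to the 32.3% of the protein-coding genes tested. TAF1D, a subunit of the promoter selectivity factor SL1, rose from 108, 97.8 and 100.3 CPM to 160, 145 and 149 CPM (log2 fold change 0.57, SE 0.06, adjusted p = 2.5e-06). RRN3, which links Pol I to SL1 and is a target of growth signalling, rose from 84.9, 91.8 and 95.5 CPM to 119.7, 120.6 and 120.5 CPM (log2 fold change 0.41, SE 0.06, adjusted p = 3.2e-05). The Sup-PR libraries were almost level for RRN3, but 18.2% of its 100-base stretches occur elsewhere, in pseudogene copies such as RRN3P1 and RRN3P2.

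TAF1C, another SL1 subunit, moved the other way, with 57.3, 58.8 and 54.8 CPM in Sup-B15 and 54.9, 42.9 and 40.7 CPM in Sup-PR (log2 fold change -0.31, SE 0.09, adjusted p = 0.013). Here 1 Sup-PR library lay at the Sup-B15 level, so the lines overlapped, and the call was lost without Sup-B15 replicate 2 (adjusted p = 0.053) or without Sup-PR replicate 3 (adjusted p = 0.057). UBTF, which binds along the ribosomal DNA and keeps it open, had 348, 345 and 356 CPM in Sup-B15 and 343, 377 and 376 CPM in Sup-PR and did not pass the test (log2 fold change 0.06, adjusted p = 0.33, and -0.01 when scaled by library size alone). The remaining SL1 subunits TAF1A and TAF1B had log2 fold changes of 0.18 and 0.23, with adjusted p of 0.12 and 0.062.

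BRF1 had the largest log2 fold change of all members in either direction. It is a subunit of TFIIIB, the factor that places Pol III at transfer RNA and 5S genes, and lies at chr14:105209286-105315589 (minus strand, GRCh38). Its level was 91.3, 92.6 and 94.2 CPM in Sup-B15 and 232, 233 and 229 CPM in Sup-PR (log2 fold change 1.32, SE 0.05, adjusted p = 8.1e-11). The libraries of each line were nearly level, and its mean FPKM was 6.97 in Sup-B15 and 17.5 in Sup-PR. BDP1, the TFIIIB subunit that works beside it, had 118, 115 and 102 CPM against 121, 116 and 114 CPM and did not pass the test (log2 fold change 0.07, adjusted p = 0.34). MAF1, the Pol III repressor, rose from 221, 219 and 245 CPM to 257, 292 and 280 CPM (log2 fold change 0.28, SE 0.06, adjusted p = 0.0016), the lines lying apart.

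The genes around BRF1 varied. Of its 10 nearest tested neighbours, 2 were higher and 1 was lower, beside 28.0% and 27.4% of all genes tested. Their log2 fold changes ran from -1.40 to 0.64, with a median of 0.14. The higher genes were BTBD6 (0.63) and PACS2 (0.25), which lie opposite BRF1 over 4.76% and 3.17% of the BRF1 exon bases.

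Other genes of the 3 transcription systems were examined from 7 lists, also chosen with earlier results known. Of 147 genes tested, 65 were higher and 22 were lower, with a median log2 fold change of 0.13, so that the share of higher genes was 44.2%, between the members and all genes tested. Among 15 further genes of Pol I and ribosomal DNA, 10 were higher (66.7%) and 3 were lower (median 0.52). The share of higher genes was 28.0% over all genes tested and 32.3% over the protein-coding ones. WDR43, NOLC1 and UTP15, which act in the making of ribosomal RNA, rose by 0.83, 0.77 and 0.59, while the topoisomerase TOP2A fell by 0.59 on the log2 scale. TTF1 and SIRT7, the other lower genes of this list, fell by 0.57 and 0.56. Among 19 genes of Pol III and small nuclear RNA transcription, 10 were higher (52.6%) and 3 were lower (median 0.19). SNAPC2 of the snRNA activating complex stood at 0.92 and SSB, the La protein that binds new Pol III transcripts, at 0.74. The Pol III subunit gene CRCP rose by 0.29.

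For the general factors, the elongation genes and Mediator of Pol II the medians were lower than for the lists above, and these gaps were not tested. Of 32 general transcription factors, 13 were higher and 4 lower (median 0.14), with TAF4B, an alternative TFIID subunit, at 1.31. Of 28 genes of pausing and elongation, 11 were higher and 5 lower (median 0.12), and the elongation factors ELL2 and ELL3 went in opposite directions, at 0.83 and -1.17. Of 32 Mediator genes, 9 were higher and 5 lower (median 0.09), with the kinase CDK19 at -1.01 and MED12 at -0.63. The shares of higher genes in these lists were in turn 40.6%, 39.3% and 28.1%. Over all genes tested the share was 28.0%, and over the protein-coding ones 32.3%. Among 15 genes of polymerase assembly and nuclear import, 8 were higher (53.3%) and 1 was lower (median 0.20). PFDN2, a prefoldin subunit, rose by 0.77, whereas RPAP1, a Pol II-associated protein, fell by 1.44 on the log2 scale.

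Of 6 genes of the separate mitochondrial RNA polymerase system, 4 were higher and 1 was lower (median 0.36). The share of higher genes was 66.7%, beside 32.3% of the protein-coding genes tested. POLRMT, the mitochondrial polymerase, rose by 0.44. The gene that fell was MTERF1, a mitochondrial transcription terminator, with 128 counts over the Sup-B15 libraries and 0 over the Sup-PR libraries, which makes it at least 45.7-fold lower when the Sup-PR libraries together are set at a floor of 3 counts (this bound covers counting error only).

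The promoters were searched for CACGTG, the E-box bound by MYC and related factors, which reads the same on both strands. RefSeq promoter windows matched 32 of the 43 members. In the 250 bases before the start, CACGTG was present in 3 of them (9.38%), beside 7.73% of all 27305 genes with a RefSeq window and 9.73% of the 15843 protein-coding ones. The share among the members was close to that of protein-coding genes in general. The stretches around the motif are shown to give the motif in its setting, 5′ to 3′ on the strand of the gene (RefSeq, GRCh38.p14), with the E-box in capitals. They are CD3EAP at chr19:45406602-45406643 (plus strand), POLR3A at chr10:78029516-78029580 (minus strand) and POLR3C at chr1:145823974-145824039 (plus strand).
CD3EAP: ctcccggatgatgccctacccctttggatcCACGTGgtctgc
POLR3A: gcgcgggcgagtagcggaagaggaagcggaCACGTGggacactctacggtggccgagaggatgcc
POLR3C: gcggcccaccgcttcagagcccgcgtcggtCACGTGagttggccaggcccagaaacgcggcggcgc
The motif began 12 bases before the RefSeq start of CD3EAP, 35 before that of POLR3A and 196 before that of POLR3C. These 3 genes were higher in Sup-PR by 0.73, 0.16 and 0.29 on the log2 scale. Whether the motif has a part in these differences was not tested. For all 3 genes, this RefSeq start lies inside the gene as the GENCODE annotation gives it, and for CD3EAP the motif does so too. POLR3C has a further RefSeq window (chr1:145824195-145824494) without the motif in the bases searched. POLR3G was not matched.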

How the data were processed

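RNA from 3 Sup-B15 and 3 Sup-PR libraries was sequenced from paired ends after preparation with a NEBNext Ultra kit. The submitters' processing notes name CASAVA, HISAT2 and DESeq2 without versions, with the genome build GRCh38.p12, and the paper also names edgeR. For the counting step, neither the program nor the annotation nor the strand setting is given in the sources used here. The authors deposited raw counts per gene, used here for all tests, and FPKM, used here for levels between genes and for ratios. The deposited table also holds scaled counts and the authors' own comparison (fold change, p-value and adjusted p), which were not used.

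Libraries held 16966569 to 26603422 counts, and that number limits the precision of genes with few counts. Genes were filtered with filterByExpr, normalised by TMM and tested with edgeR 4.0.16 (glmQLFit with robust estimation and glmQLFTest) in R 4.3.3, with Benjamini-Hochberg adjustment over 14869 genes. Calls required an adjusted p under 0.05 and, where stated, a fold change over 1.5. CPM use the TMM-scaled library size, and the common biological coefficient of variation was 0.065. Ratios of FPKM were compared on the log2 scale by a two-sided exact permutation test. Libraries of a line differed by more than sampling noise, with a chi-square of 2.92 to 9.67 per gene. The fit was tested on simulated counts with few changed genes and the same dispersion for all genes, a simpler setting than in these data.

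All 43 members have coordinates in GENCODE release 29, which gave exon overlaps and shared 100-base stretches. Promoters are from RefSeq (GRCh38.p14). One member is counted in the groups but not reported here by itself. The others are named, and values in each library are given for those past both thresholds, the largest changes of each role, the catalytic subunits, the POLR3G and POLR2J families, and UBTF, RRN3 and MAF1. From the other lists, at most 4 genes per direction past both thresholds are named. POLRMT, BDP1, TTF1, SIRT7 and CRCP are described further after their values were seen. Members and lists were chosen with earlier results of these data known. Alternatives were DESeq2 1.42.0, limma 3.58.1 (voom, and log2 FPKM with a pseudocount of 1 or 0.1), other scalings and filters, glmTreat, protein-coding genes only, a replicate block and each library left out. Tables and figures were made with matplotlib 3.10.9, SciPy 1.17.1, numpy 2.4.6 and pandas 2.3.3 under Python 3.11.15.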

Additional observations from a re-analysis of the deposited data

How the results depend on the processing

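Across all alternatives, 26 to 30 members were higher in Sup-PR (29 in the main test). The number of lower members (5) was 2 with limma on log2(FPKM + 1), 2 with log2(FPKM + 0.1), 2 on log2(FPKM + 1) with no filter, and 2 to 5 with 1 library left out, the lowest being 2 without Sup-B15 replicate 2, where POLR2A, TAF1C and the POLR2J3 gene ENSG00000285437 lost their calls. The 6 members higher by more than 1.5-fold became 3 when glmTreat tested against that fold, and ranged from 5 to 7 with 1 library left out. The 2 lower by more than 1.5-fold became 1 with at least 10 counts in every library, 0 with glmTreat, 0 with limma on log2(FPKM + 1), 0 with log2(FPKM + 0.1), 0 on log2(FPKM + 1) with no filter, and 1 to 2 with 1 library left out (1 without Sup-B15 replicate 2). The FPKM filter left 40 members and the stricter count filter left 42. POLR2A passed the FPKM filter but lost its call in the fits on log2 FPKM, and beyond this the cause was not tested. UBTF, which did not pass the test, went to -0.0071 when scaled by library size alone. Of 392 alternatives for the 21 members given in full, 351 kept direction and call, 40 kept direction only and 1 reversed. Scaling by library size alone moved the median of all genes to -0.08. All 5 ratios kept their direction, with POLR3G to POLR3GL at 1.46 to 1.74 on the log2 scale. Whether the replicate numbers pair the libraries could not be settled from these values. Deviations of same-numbered libraries correlated at 0.13, -0.06 and 0.20. Sup-B15 replicates 1 and 3 correlated best with the Sup-PR library of the same number, and Sup-B15 replicate 2 with Sup-PR replicate 1. A fit with the replicate block gave 30 higher and 5 lower members, with 6 and 2 of them over 1.5-fold. Depth limits the POLR2J2 and POLR2J3 values, where a library held as few as 9 counts.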
